A study of Glycine soja and Glycine max with 13 samples.

Results

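Seeds of 3 cultivated and 3 wild soybean lines that held little storage protein RNA were compared with each other. They were chosen by 1 measured value, the level of the glycinin gene Glyma.03G163500, out of 13 lines. A line entered with fewer than 300 CPM of it (counts per 1 M counts of the line). The choice gave the cultivated lines (Glycine max) df14, df36 and df3 and the wild lines (Glycine soja) ys16, ys29 and ys34, which are called early-filling here. The other 7 lines, 3 cultivated (df12, df17, df43) and 4 wild (ys17, ys1, ys23, ys26), are called advanced. Plants were field-grown and untreated, and whole seeds were taken 13 days after flowering. Each sample was 1 stranded mRNA library of a different line. Pooling of plants or seeds is not stated, nor is where a line came from or at what hour seeds were taken, so the spread within a group is the spread between lines.

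A soybean seed first builds its coat, endosperm and embryo by cell division, and then fills the embryo with protein and oil made from sugar that the coat delivers. Glycinin and β-conglycinin are the main reserve proteins, and their RNA appears when filling starts. Wild soybean has small, dark and hard seeds, and most cultivars have large seeds with a pale coat. Lines sampled on the same day after flowering can be at different points of this course, and the series as a whole mixes them. Comparing lines that are all low in glycinin RNA was meant to set the crop beside its wild relative at a more similar point. The lines were not matched, and still ran from 0.983 CPM (df14) to 144 CPM (df3) of the glycinin gene. Whole seeds are a mixture, so fewer cells of a type and less RNA per cell cannot be told apart.

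No table used here pairs the identifiers of the counts with gene names. The 113 genes of 11 lists below carry names that were attached to identifiers from the soybean literature and were not checked against an annotation. They are given as the name under which an identifier was listed. No sequence is printed for the same reason.

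Glyma.03G163500, the glycinin gene used for the choice (listed as Gy1), stood at 0.983 CPM in df14, 11.9 CPM in df36 and 144 CPM in df3. In the wild lines it stood at 6.01 CPM in ys16, 6.82 CPM in ys29 and 7.17 CPM in ys34. The line just inside the limit was df3, and the line just outside it was cultivated df43 at 524 CPM. The wild lines therefore lay close together, while the cultivated lines spread on both sides of them. These values made the choice and are given without a test.

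**Figure D1:**
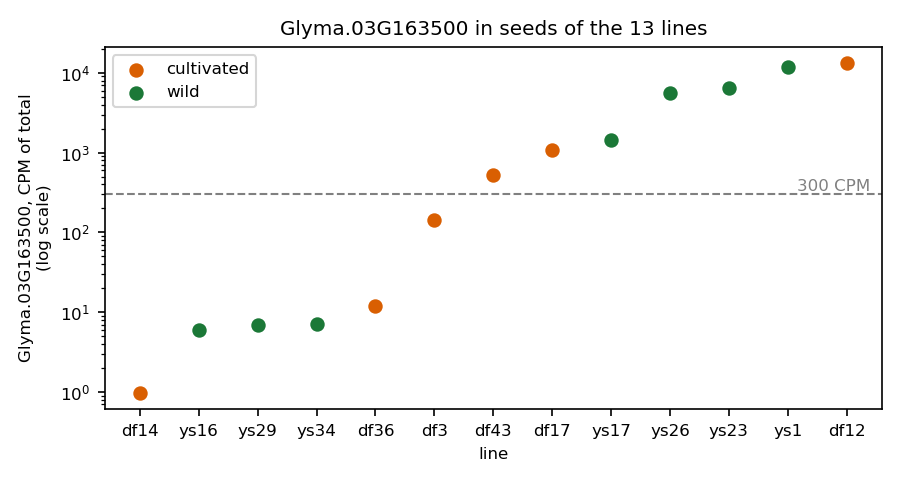
CPM of Glyma.03G163500 on a log scale in each of the 13 lines, ordered by that value, with the limit of 300 CPM as a dashed line. The 6 points under the line, from 0.983 to 144 CPM, are the early-filling lines, and df43 at 524 CPM is the nearest line above it.

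Other reserve protein genes are described without a test because they belong with the gene that made the choice. Of 11 listed identifiers 8 had enough counts to be tested, and 2 were not analysed here. Summed over the 8, storage RNA was 109 CPM in df14, 474 CPM in df36 and 1627 CPM in df3, and 315 CPM in ys16, 507 CPM in ys29 and 29.4 CPM in ys34. This sum includes Glyma.03G163500 itself, so it is not separate from the choice. It also adds up Glyma.20G148300 and Glyma.20G148400, which share nearly all of their counts (669.5 and 667.6 CPM in df3), and so counts them double. The highest value was in df3 and the lowest in ys34, the wild line with the most Glyma.03G163500, so the wild lines that were close for that gene spread widely here. The groups overlapped. CPM of genes here and below, other than the values that chose the lines, are scaled by TMM factors, which correct for a few genes taking up much of a library. The β-conglycinin gene Glyma.10G246300 was at 22.8 CPM in df14, 85.4 CPM in df36 and 135 CPM in df3, all above the 14.9 CPM in ys16, 10.4 CPM in ys29 and 7.53 CPM in ys34. The most abundant member, Glyma.20G148300, which shares nearly all of its counts with Glyma.20G148400, ran from 40.7 to 669.5 CPM across the crop lines and from 6.13 to 243 CPM across the wild ones. Glyma.19G164800 (listed as Gy7) was at 1.60 to 7.07 CPM in cultivated lines and at 0 to 1.10 CPM in wild lines.

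Totals were 12.7 M to 26.04 M counts per line, 19.01 ± 6.72 M in cultivated and 18.05 ± 5.002 M in wild lines (SD, n = 3 each). At these depths 3 counts stood for 0.115 to 0.237 CPM of a line's total, which covers counting error only. From 15.9% of counts (df36) to 39.4% (ys34) fell on the 8 most abundant features. On the first principal component of log2 CPM (46.4% of the variance) df36 lay farthest out at -130 and ys34 lay at the other end at 88.6. Lines of the same group correlated at 0.907 on average among cultivated and 0.919 among wild lines, against 0.884 between the groups. The excess of 0.0293 had p = 0.1 in an exact one-sided permutation test over 20 splits of the lines, the smallest p that such a test of 3 against 3 lines can give here. For the more abundant genes, those of a mean log2 CPM from 5 up, the exact p was 0.2. Single pairs did not all follow the groups. Across groups df14 and ys16 correlated at 0.9295, while df36 and df3, both cultivated, correlated at 0.871. Because df36 stood apart, the genes outside the storage list whose groups did not overlap, the KTI3 gene and the most abundant regulator are also given without it.

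Of 31511 tested genes, 11 (0.0349%) were called different between early-filling cultivated and wild seeds, 5 higher (0.0159%) and 6 lower (0.019%) in the crop. The call was an adjusted p under 0.05 in the quasi-likelihood test of edgeR with Benjamini-Hochberg adjustment over all genes. In size, the log2 fold changes ran from 3.09 to 12.3 among the 5 and from 3.52 to 6.14 among the 6. Without df36 there were 6 calls, all of them among the 11, and without ys16 there were 22, with 7 of the 11 among them. DESeq2 called 582 genes of 31492 (1.85%), 393 higher (1.25%) and 189 lower (0.6%), and all 11 were among them. For 2909 genes (9.23%) every cultivated line lay above every wild line, and for 3004 (9.53%) every cultivated line lay below. An unadjusted edgeR p under 0.05 was reached by 3877 genes (12.3%), 2386 of them higher in cultivated seeds (7.57%) and 1491 lower (4.73%).

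Of the called genes without overlap whose higher group averaged 10 CPM or more, the 2 largest differences in each direction were in genes without a name here. Glyma.06G306400 had 545 counts in df14, 1159 in df36 and 303 in df3, and 0 counts in ys16, ys29 and ys34. Its mean of 33.99 ± 13.7 CPM (SD, n = 3) was at least 639-fold higher than the level that 3 counts over the wild lines stand for (edgeR adjusted p = 0.00686). Glyma.04G195600 stood at 22.6 CPM in df14, 16.2 CPM in df36 and 17.9 CPM in df3. It had 5 counts in ys16, 0 in ys29 and 2 in ys34 (log2 fold change 7.22 with SE 0.512 and edgeR adjusted p = 0.00251). Both genes thus had few or no counts in the early-filling wild lines and were moderately abundant in each early-filling cultivated line. How well reads of wild lines match these identifiers was not tested, so few counts need not mean low expression.

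In the other direction, Glyma.06G213600 stood at 1.29 CPM in df14, 1.76 CPM in df36 and 1.52 CPM in df3, against 32.8 CPM in ys16, 30.5 CPM in ys29 and 25.2 CPM in ys34. That was a 19.3-fold difference (log2 fold change -4.27 with SE 0.261 and edgeR adjusted p = 0.00251). A smaller gap of 11.4-fold was that of Glyma.05G085600, at 1.85, 1.58 and 1.44 CPM in df14, df36 and df3 against 19.4, 17.2 and 19.7 CPM in ys16, ys29 and ys34 (log2 fold change -3.52 with SE 0.249 and edgeR adjusted p = 0.00251). Lines within each group were close together for both genes. Without df36 the calls of these 4 genes held, with edgeR adjusted p of 0.0128 to 0.0156. With the choice of lines widened to 3000 CPM, Glyma.04G195600 fell short at a log2 fold change of 1.43 (edgeR adjusted p = 0.573), Glyma.06G213600 at -2.42 (0.224) and Glyma.06G306400 at 11.8 (0.107). In a fit over all 13 lines, which share 1 estimate of spread and gave 10 calls (0.0302%), none of the 4 passed, with edgeR adjusted p of 0.0515 to 0.238. Glyma.06G306400 also missed the threshold with the storage score, the mean log2 CPM of the storage list, as a term (edgeR adjusted p = 0.0789).

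**Figure D2:**
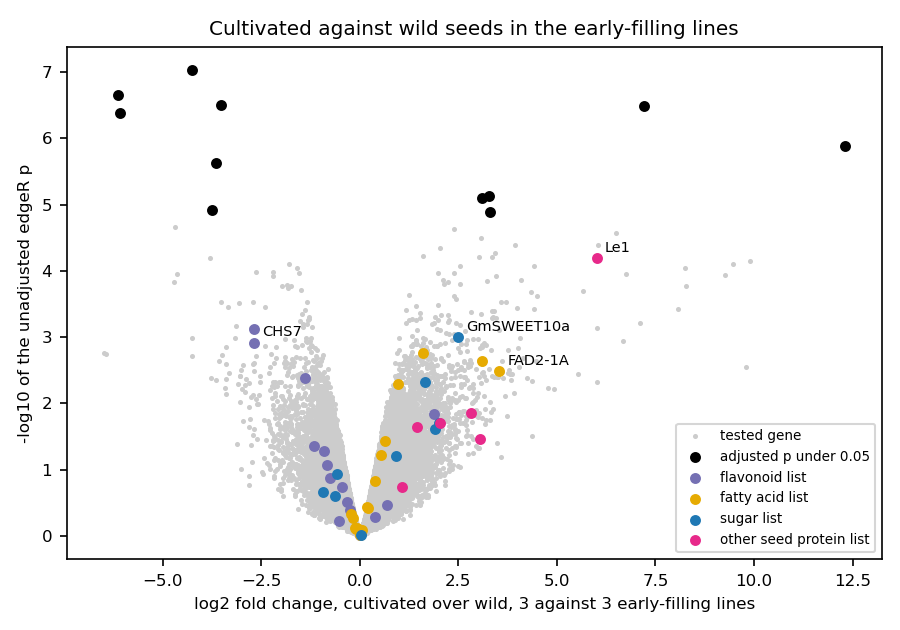
Each point is 1 of the 31511 tested genes, with the log2 fold change of cultivated over wild seeds on the x axis and −log10 of the unadjusted edgeR p on the y axis. Black points are the 11 called genes, and coloured points are genes of 4 lists, none of which was called.

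The 7 advanced lines were not used in these calls and show what the same genes did there. Values that set early beside advanced lines are on the TMM scale of all 13 lines. Glyma.06G306400 was at 0 CPM in cultivated df43 and at 18.8 and 19.002 CPM in df12 and df17, and wild ys26 held 8.10 CPM of it. Glyma.04G195600 was at 0 CPM in df12 and at 16.8 to 29.99 CPM in all 4 advanced wild lines. The groups of advanced lines overlapped for both genes. Glyma.06G213600 was at 22.7 CPM in df12 and 21.0 CPM in df17, and at 0.213 CPM in wild ys1. Glyma.05G085600 kept its order, at 1.77 to 1.98 CPM in advanced cultivated and 3.19 to 26.8 CPM in advanced wild lines.

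Of the 11 called genes, 7 had the same fitted direction in the advanced lines and 0 were called there by edgeR, while 2 of the 11 reached an unadjusted p under 0.05 in that direction. In the advanced lines edgeR called 1 gene of 33071 (0.00302%), and 2432 (7.35%) reached an unadjusted p under 0.05. Over all genes, 79.3% of those higher without overlap in early-filling cultivated lines had the same fitted direction in the advanced lines, as had 82.5% of those lower. The difference between the early and the advanced contrast was tested directly as an interaction over 13 lines. It was called for 0 of 33071 genes by edgeR (0%), with a smallest adjusted p of 0.376 and 1177 genes at an unadjusted p under 0.05 (3.56%). DESeq2 called 7 genes for it and limma voom 1. No effect below is therefore shown to be particular to the early-filling lines.

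A stricter look at presence and absence gave few genes. In 8 genes every early-filling cultivated line had at least 10 counts and every early-filling wild line had 0, and in no gene was it the other way round. All 8 had counts in at least 1 advanced wild line, so none was without counts in all wild lines.

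The lists and their members were chosen with earlier results of these data known. Counts of list genes set beside shares of all genes, here and below, are therefore description and no separate evidence. The genes of the lists, leaving out the storage list, numbered 93 among the tested genes, of 102 identifiers listed. None of them passed edgeR over all genes, beside 0.0349% of all tested genes. An unadjusted edgeR p under 0.05 was reached by 28 (12.3% of all tested genes), 22 of them higher in cultivated seeds (7.57%). With DESeq2, 12 of 92 members with an adjusted p passed, 9 higher and 3 lower, beside 1.85%, 1.25% and 0.6% of all genes. The groups did not overlap for 17 genes that were higher and 8 that were lower in the crop, beside the 9.23% and 9.53% of all tested genes. Their median log2 fold change was 0.25, against 0.01 over all tested genes. In the advanced lines the fitted direction was the same for 12 of these 17 and 7 of these 8. A list of 6 reference genes that are often used to scale such measurements shared the lean to higher values in the crop. The list had 5 of 6 fitted higher, beside 16023 of all 31511 tested genes. Its sum was 1277 CPM in df14, 2167 CPM in df36 and 1426 CPM in df3, against 1099 to 1142 CPM in the wild lines, and its part in the results below was not tested. Within that list actin (Glyma.18G290800, listed as ACT11) averaged 128 CPM in both groups, and cyclophilin (Glyma.12G024700, listed as CYP2) ran from 682 to 1307 CPM in the crop, above the 567 to 657 CPM of the wild lines. Tubulin (Glyma.03G124400, listed as TUB4) ran from 192 to 342 CPM, above the 142 to 180 CPM of the wild lines. Without df36 the log2 fold changes of CYP2 and TUB4 went from 0.59 to 0.26 and from 0.71 to 0.47.

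The flavonoid list covers genes of seed coat pigments and 2 isoflavone synthase genes. Of its members, edgeR called 0, and 5 had an unadjusted p under 0.05, beside 0.0349% and 12.3% of all tested genes. Flavonoids are built from chalcone, which chalcone synthase makes, and in the seed coat they end as anthocyanins and tannins. Of 17 listed identifiers 16 were tested, 12 were fitted lower in the crop and 4 higher, beside 15488 and 16023 of all 31511 tested genes. The median log2 fold change of the 16 was -0.49. The groups did not overlap for 5 of them, all lower in cultivated lines, beside 9.53% of all tested genes. DESeq2 called 3 of 15, all lower, beside 0.6% of all genes. Glyma.01G228700, a chalcone synthase gene listed as CHS7, stood at 96.0 CPM in df14, 101 CPM in df36 and 81.3 CPM in df3. In the wild lines it stood at 848 CPM in ys16, 169 CPM in ys29 and 790 CPM in ys34. The cultivated lines were close together, and ys29 lay nearer to them than to the other wild lines.

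The mean of CHS7 was 6.48-fold lower in cultivated seeds (log2 fold change -2.70, SE 0.569), with an edgeR adjusted p of 0.26. DESeq2 gave an adjusted p of 4.87e-05, the lowest over 18 alternatives, where the highest was 0.668. Glyma.11G011500, listed as CHS8, a close copy whose reads may be shared with it, had the same pattern. It stood at 43.8, 47.0 and 31.9 CPM in df14, df36 and df3 against 382, 86.5 and 318 CPM in ys16, ys29 and ys34 (log2 fold change -2.68 with SE 0.525 and edgeR adjusted p = 0.21). Without df36 the log2 fold change was -2.77 for CHS7 and -2.80 for CHS8. Summed over the 7 tested chalcone synthase identifiers, 136 to 184 CPM in cultivated lines stood against 291 to 1286 CPM in wild lines.

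A gene further along the pathway is Glyma.06G202300, listed as the T locus, which encodes the flavonoid 3'-hydroxylase that sets brown and black pigments. It stood at 158 CPM in df14, 104 CPM in df36 and 236 CPM in df3, against 484 CPM in ys16, 393 CPM in ys29 and 416 CPM in ys34. That was 2.60-fold lower in the crop (log2 fold change -1.38 with SE 0.356 and edgeR adjusted p = 0.309). Without df36 the log2 fold change was -1.14. DESeq2 gave an adjusted p of 0.00563, and the alternatives reached up to 0.787. Glyma.08G109200 (listed as CHS5) was lower without overlap too, at 2.08 to 5.25 CPM in cultivated and 5.47 to 15.7 CPM in wild lines, with a log2 fold change of -1.15 that was -1.35 without df36 and -0.55 without ys16.

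The last steps toward anthocyanins and tannins differed less. Anthocyanidin reductase (Glyma.08G062000, listed as ANR1), which feeds tannin synthesis in the coat, was at 506, 400.0 and 305 CPM in df14, df36 and df3 and at 539 to 555 CPM in the wild lines (log2 fold change -0.45, edgeR adjusted p = 0.525, and -0.45 also without df36). Anthocyanidin synthase (Glyma.11G027700, listed as ANS3), the most abundant gene of the list, averaged 592 ± 168 CPM in the crop and 594 ± 71.2 CPM in its relative (SD, n = 3). Its log2 fold change of -0.0052 changed sign without df3 or ys29 (0.18 and 0.082). Members of the list went both ways, and 4 of them were fitted higher in the crop, at log2 fold changes of 1.89 for Glyma.13G173500 (listed as IFS2), 0.70 for Glyma.08G109300 (CHS3), 0.39 for Glyma.08G109400 (CHS1) and 0.033 for Glyma.20G241500 (CHI1A). These 4 were picked after their values were seen, and differences between genes were not tested.

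Among advanced lines the chalcone synthase gene CHS7 was at 22.7 CPM in df17 and 130 CPM in df43, but at 763 CPM in df12. The 4 advanced wild lines held 609 to 800 CPM, and the groups overlapped through df12. Its advanced log2 fold change was -1.19 (edgeR adjusted p = 0.71), and the difference from the early contrast was -1.52 (edgeR adjusted p = 0.99995). The T gene stood at 83.8 to 218 CPM in advanced cultivated and 286 to 433 CPM in advanced wild lines, so each of the 6 cultivated lines lay below each of the 7 wild lines.

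**Figure D3:**
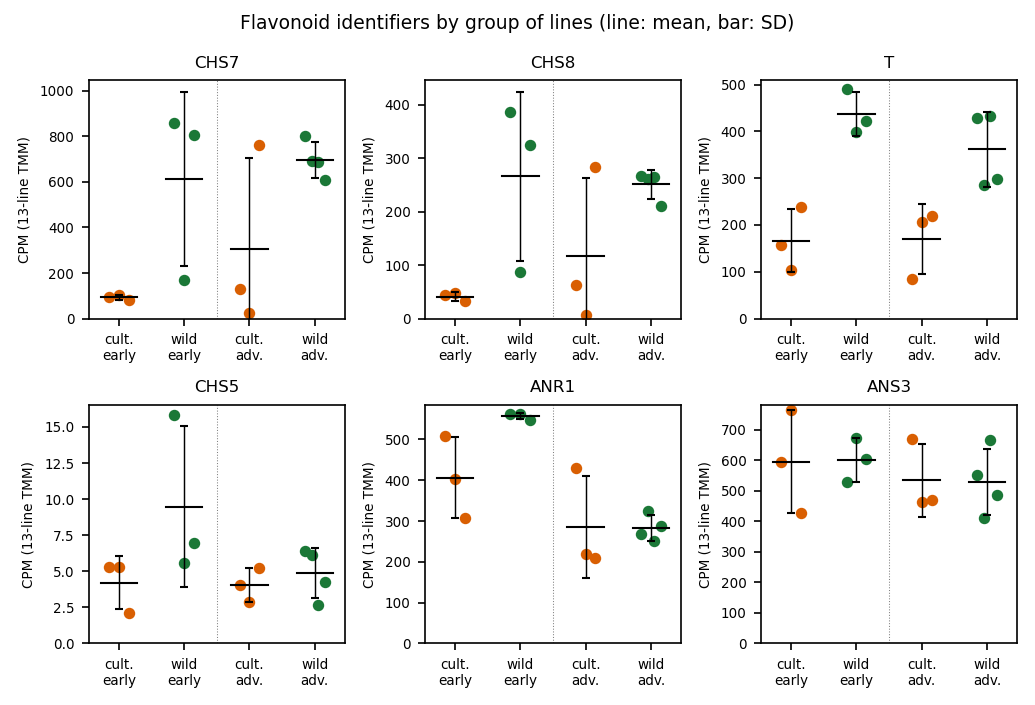
CPM on the TMM scale of 13 lines for 6 listed flavonoid identifiers, 1 point per line, with the mean as a line and the SD as a bar (cut off at 0). Points of CHS7, CHS8 and T in early-filling cultivated lines lie below those of early-filling wild lines, while ANS3 overlaps.

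A further list held seed proteins outside the storage list. Of these, edgeR called 0, and 5 had an unadjusted p under 0.05, beside 0.0349% and 12.3% of all tested genes. Of 7 listed identifiers 6 were tested and all 6 were fitted higher, beside 16023 of all 31511 tested genes. The median log2 fold change of the 6 was 2.43. The groups did not overlap for 2 of them and overlapped for the other 4, beside the 9.23% of all tested genes that were higher without overlap. DESeq2 called 2 of 6, both higher, beside 1.25% of all genes. Seed lectin (Glyma.02G012600, listed as Le1), a carbohydrate-binding protein stored in the embryo, stood at 31.4 CPM in df14, 231 CPM in df36 and 299 CPM in df3. It stood at 2.02 CPM in ys16, 3.84 CPM in ys29 and 2.93 CPM in ys34. Every cultivated line lay above the 3 wild lines.

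Lectin was 64.5-fold higher in the crop (log2 fold change 6.01, SE 0.832), just short of the threshold with an edgeR adjusted p of 0.0835. DESeq2 gave 2.89e-17, the lowest over 18 alternatives, and the highest was 0.418, from the fit with the storage score as a term. In that fit the log2 fold change was 4.86, and with the choice of lines widened to 3000 CPM it was 2.87. Without df36 it was 5.83 (edgeR adjusted p = 0.15), and without df14 it was 6.51 and passed (edgeR adjusted p = 0.0199). The difference was not seen in the advanced lines, where lectin ran from 325 to 3243 CPM in the crop and from 163 to 2412 CPM in the wild lines. The interaction was 6.07 on the log2 scale, with an unadjusted p of 0.00106 that did not hold over all genes (edgeR adjusted p = 0.99995).

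The Kunitz trypsin inhibitor Glyma.08G341500 (listed as KTI3), which blocks digestive enzymes of seed eaters, stood at 205 CPM in df14, 983 CPM in df36 and 714 CPM in df3. In the wild lines it stood at 298 CPM in ys16, 104 CPM in ys29 and 60.7 CPM in ys34 (log2 fold change 2.04 with SE 0.713 and edgeR adjusted p = 0.382). The groups overlapped, as df14 lay below ys16. The log2 fold change was 1.57 without df36, 2.94 without ys16 and 1.17 with the storage score as a term. The lipoxygenase gene Glyma.13G347500 (listed as LOX2) did not overlap but was scarce, at 1.70 to 2.88 CPM in cultivated and 0.476 to 1.14 CPM in wild lines (log2 fold change 1.45, and 1.51 without df36).

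Genes of fatty acid synthesis held the most identifiers without overlap, 7 of 16 tested, and all 7 were higher in cultivated lines, as were 9.23% of all tested genes. The list had 11 members fitted higher and 5 lower, beside 16023 and 15488 of all 31511 tested genes. Its median log2 fold change was 0.19, and 2 of its 18 identifiers did not reach the test. The members apart were 2 oleate desaturases of the seed, 1 linoleate desaturase, 3 stearoyl desaturases and 1 thioesterase. DESeq2 called 4 of the 16, all higher, beside 1.25% of all genes. With edgeR 0 were called and 5 had an unadjusted p under 0.05, beside 0.0349% and 12.3% of all tested genes.

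Oleate desaturase turns oleic into linoleic acid in seed oil. Glyma.20G111000, listed as FAD2-1B, stood at 32.2 CPM in df14, 66.8 CPM in df36 and 177 CPM in df3, against 11.9 CPM in ys16, 16.8 CPM in ys29 and 3.60 CPM in ys34. It was 8.51-fold higher in the crop (log2 fold change 3.09 with SE 0.721 and edgeR adjusted p = 0.294), and 2.19 on the log2 scale without df3. Its partner Glyma.10G278000, listed as FAD2-1A, was at 2.27, 5.78 and 24.0 CPM in df14, df36 and df3 and at 0.333 to 1.25 CPM in wild lines (log2 fold change 3.54 with SE 0.877 and edgeR adjusted p = 0.309). Within the cultivated lines both were lowest in df14 and highest in df3. A link of the 2 genes to filling was not tested, and this order is also that of Glyma.03G163500, which chose the lines. With the storage score, which includes that gene, as a term their log2 fold changes were 1.88 for FAD2-1B and 1.83 for FAD2-1A. Without df3 that of FAD2-1A was 2.15, and without df36 they were 3.27 and 3.83.

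The desaturases that are active in all tissues did not follow the seed pair. Glyma.19G147400 (listed as FAD2-2B) averaged 84.2 ± 43.7 CPM in cultivated and 91.9 ± 25.5 CPM in wild lines (SD, n = 3). Glyma.03G144500 (listed as FAD2-2C) averaged 151 ± 66.4 and 150 ± 95.4 CPM.

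Stearoyl desaturase makes oleic acid from stearic acid. Glyma.14G121400, listed as SACPD-C, stood at 244 CPM in df14, 194 CPM in df36 and 430 CPM in df3, against 95.7 CPM in ys16, 109 CPM in ys29 and 80.7 CPM in ys34. It was 3.04-fold higher in cultivated seeds (log2 fold change 1.60 with SE 0.359 and edgeR adjusted p = 0.292). Without df36 the log2 fold change was 1.82, and DESeq2 (adjusted p = 0.00089) and limma voom (0.0493) called it, in a range of 0.00089 to 0.787 over the alternatives. The linoleate desaturase Glyma.18G062000 (listed as FAD3C) stood at 36.7 to 44.1 CPM in cultivated and 16.1 to 27.8 CPM in wild lines (log2 fold change 0.97 with SE 0.259 and edgeR adjusted p = 0.321, and 0.91 without df36).

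Smaller differences without overlap were those of Glyma.07G207200 (listed as SACPD-A, 1.57-fold), Glyma.02G138100 (SACPD-B, 1.45-fold) and the thioesterase Glyma.05G012300 (FATB1a, 1.14-fold), all higher in the crop. The lowest edgeR adjusted p of the 3 was 0.397, and without df36 their log2 fold changes were 0.51, 0.38 and 0.17. The triacylglycerol synthesis gene Glyma.13G106100 (listed as DGAT1A) averaged 9.15 ± 2.55 CPM in cultivated and 10.4 ± 2.21 CPM in wild lines.

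Regulators of the embryo programme leaned the same way without parting the groups. All 6 tested members were fitted higher in the crop, at a median of 0.89 on the log2 scale, beside 16023 of all 31511 tested genes. Of the 6, 0 were without overlap, beside the 9.23% of all tested genes that were higher without overlap. An unadjusted edgeR p under 0.05 was reached by 2 of them, beside 12.3% of all genes. The most abundant one, the NF-Y subunit gene Glyma.17G005600 (listed as GmLEC1b), stood at 118 CPM in df14, 197 CPM in df36 and 102 CPM in df3, against 130 CPM in ys16, 62.7 CPM in ys29 and 34.2 CPM in ys34. Its log2 fold change was 0.88 (SE 0.486, edgeR adjusted p = 0.46) and 0.53 without df36. The 3 embryo markers of this study all belong to this list, and their sum, 249 to 410 CPM in cultivated and 110 to 307 CPM in wild lines, repeats its values.

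The sugar list held 9 genes, which cover sugar supply to the embryo and also synthesis of raffinose-family sugars. Of these, 6 were fitted higher and 3 lower in cultivated seeds, beside 16023 and 15488 of all 31511 tested genes. The 2 without overlap, both higher and both called by DESeq2 (beside 9.23% and 1.25% of all genes), were the SWEET10 pair, which exports sugar from the seed coat toward the embryo. Glyma.15G049200 (listed as GmSWEET10a) stood at 93.6 CPM in df14, 193 CPM in df36 and 62.0 CPM in df3, against 23.5 CPM in ys16, 28.3 CPM in ys29 and 10.7 CPM in ys34. It was 5.58-fold higher in early-filling cultivated lines (log2 fold change 2.48 with SE 0.508 and edgeR adjusted p = 0.252) and 1.89 on the log2 scale without df36. The adjusted p ran from 0.000133 with DESeq2 to 0.667 over the alternatives.

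Glyma.08G183500 (listed as GmSWEET10b) was the more abundant, at 521 CPM in df14, 1290 CPM in df36 and 519 CPM in df3 and at 214 to 302 CPM in the wild lines. Its log2 fold change was 1.65 (SE 0.436, edgeR adjusted p = 0.318) and 1.06 without df36. Both genes were listed with their values in all 13 lines known, so their direction here is no separate evidence. In the advanced lines the difference was 1.11 and 0.56 on the log2 scale for GmSWEET10a and GmSWEET10b, and the differences from the early contrast, 1.36 and 1.08, did not pass over all genes (edgeR adjusted p = 0.99995 for both). The 3 seed coat markers of this study, the pair and ANR1, summed to 886 to 1883 CPM in cultivated and 777 to 885 CPM in wild lines, while ANR1 alone was lower in the crop.

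The other sugar genes overlapped between the groups. Sucrose synthase, which splits arriving sucrose, was represented by 3 identifiers. Glyma.13G114000, the most abundant, stood at 496 to 610 CPM in cultivated and 574 to 949 CPM in wild lines (log2 fold change -0.57, edgeR adjusted p = 0.467). Glyma.15G182600 followed another grouping, at 63.2 CPM in df14, 64.7 CPM in df36 and 86.7 CPM in ys16, but 283 CPM in df3, 348 CPM in ys29 and 354 CPM in ys34. Glyma.09G073600 averaged 222 ± 47.0 and 219 ± 63.5 CPM.

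Genes of the raffinose family of sugars, which protect the dry seed, were scarce. Glyma.06G179200 (listed as RS2), a raffinose synthase, stood at 3.36 to 8.91 CPM in cultivated and 0.333 to 3.37 CPM in wild lines (log2 fold change 1.996, edgeR adjusted p = 0.382, and 3.05 without ys16). Glyma.05G003900 (listed as RS3) averaged 9.25 and 14.3 CPM, with a log2 fold change of -0.63 that was 0.065 without ys16 and 0.12 with limma voom. Stachyose synthase (Glyma.19G217700, listed as STS) averaged 10.6 ± 1.40 and 5.58 ± 3.64 CPM. The invertase inhibitor Glyma.17G036300 (listed as GmCIF1) ran from 1.12 to 4.45 CPM in cultivated and 0.33 to 1.27 CPM in wild lines.

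**Figure D4:**
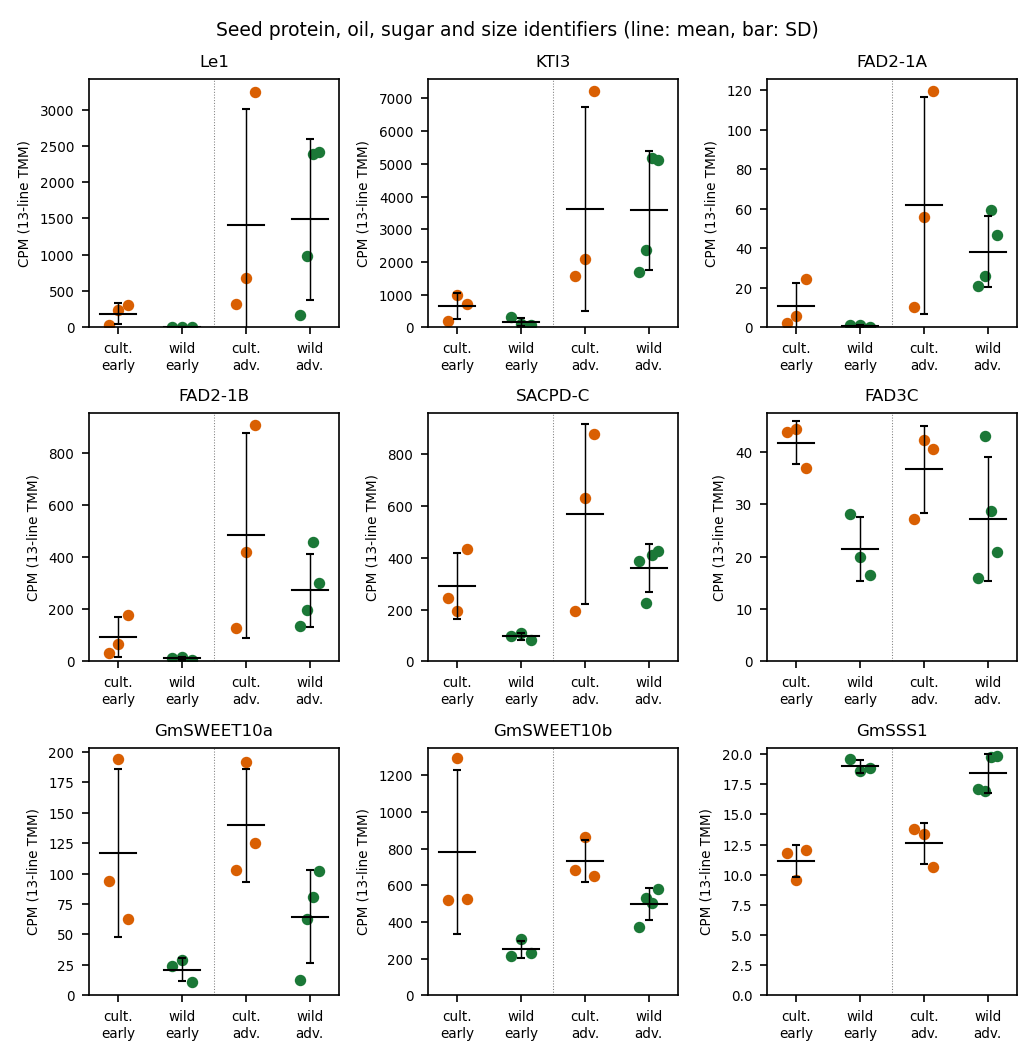
CPM on the TMM scale of 13 lines for 9 listed identifiers, 1 point per line, with the mean as a line and the SD as a bar (cut off at 0). In the early-filling lines Le1, both FAD2-1 genes, SACPD-C, FAD3C and the SWEET10 pair lie higher in cultivated lines and GmSSS1 lower, without overlap, whereas KTI3 overlaps.

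Genes linked to seed and organ size numbered 16, all tested, and their median was 0.17 on the log2 scale. Of the 16, 10 were fitted higher and 6 lower in the crop, beside 16023 and 15488 of all 31511 tested genes. The groups did not overlap for 4 of them, 2 in each direction, close to the 9.23% and 9.53% of all tested genes. Glyma.19G196000 (listed as GmSSS1), a homologue of SPINDLY, which in Arabidopsis represses gibberellin signalling, stood at 11.7 CPM in df14, 9.51 CPM in df36 and 11.9 CPM in df3. In wild lines it stood at 19.4 CPM in ys16, 18.3 CPM in ys29 and 18.5 CPM in ys34. The log2 fold change was -0.76 (SE 0.208, edgeR adjusted p = 0.324) and -0.67 without df36, and the alternatives ranged from 0.0758 to 0.792 in adjusted p. The gap was narrow in spread but small in size, and the advanced lines gave -0.55.

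Gibberellin 20-oxidase, which makes precursors of active gibberellin, lay on the other side. Glyma.07G081700 (listed as GmGA20OX) stood at 17.6 CPM in df14, 18.8 CPM in df36 and 20.5 CPM in df3, against 12.1 CPM in ys16, 3.91 CPM in ys29 and 0.999 CPM in ys34. The cultivated lines were alike and the wild lines spread over a wide range (log2 fold change 1.71 with SE 0.670 and edgeR adjusted p = 0.391). Without ys16, the wild line nearest to them, the log2 fold change was 2.95, and without df36 it was 1.71. Glyma.08G109100 (listed as GmST1), linked to seed thickness, stood at 1.37 to 5.72 CPM in cultivated and 0.403 to 0.781 CPM in wild lines (log2 fold change 2.57 with SE 0.622 and edgeR adjusted p = 0.297). DESeq2 gave it an adjusted p of 0.0103, within alternatives from that value to 0.942. The log2 fold change was 2.96 without df36 but 0.16 with the choice of lines widened to 3000 CPM, and the advanced lines gave -0.27. POWR1 (Glyma.20G085100), a CCT-domain gene, stood at 3.50, 0.857 and 3.04 CPM in df14, df36 and df3 and at 3.59 to 4.53 CPM in wild lines. Its log2 fold change of -0.69 became -0.28 without df36, whose value lay far below those of the other lines.

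The cytochrome P450 genes of the CYP78A family, which promote organ growth, overlapped between the groups. The most abundant, Glyma.02G119600 (listed as GmCYP78A57), stood at 465 to 768 CPM in cultivated and 431 to 684 CPM in wild lines. Its log2 fold change of 0.18 was -0.027 with limma voom and -0.084 with the storage score as a term. Glyma.19G240800 (listed as GmCYP78A72) averaged 267 ± 143 and 168 ± 47.8 CPM (log2 fold change 0.66, -0.073 with limma voom), and Glyma.01G061100 (listed as GmCYP78A70) averaged 13.5 ± 4.67 and 8.31 ± 5.14 CPM. Glyma.05G019200, a further member, was near 1 CPM in most lines, from 0.293 to 1.76 CPM.

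The remaining 8 size genes overlapped between the groups. The PEAPOD homologues Glyma.10G244400 and Glyma.20G150000 (listed as GmBS1 and GmBS2), which limit cell division in leaves and seeds, averaged 17.03 and 16.8 CPM in cultivated against 16.3 and 18.8 CPM in wild lines. Glyma.17G112800 (GmKIX8-1) averaged 13.5 and 14.5 CPM, Glyma.17G221100 (GmPP2C-1) 10.9 and 11.9 CPM, and Glyma.05G096500 (SoyWRKY15a) 7.20 and 7.39 CPM. The JAGGED homologues Glyma.20G116200 (GmJAG1) and Glyma.10G273800 (GmJAG2) averaged 5.66 and 4.23 CPM in cultivated against 3.29 and 3.46 CPM in wild lines. Glyma.05G244100 (GmST05) averaged 80.9 ± 25.001 and 59.3 ± 27.5 CPM. The largest of these differences was that of GmJAG1, 1.69-fold, and no edgeR adjusted p among the 8 genes was below 0.472.

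Of 7 domestication genes outside seed size, 5 were tested and all 5 were fitted higher in cultivated lines, beside 16023 of all 31511 tested genes. The groups did not overlap for 2 of them, beside the 9.23% of all tested genes that were higher without overlap. Neither edgeR nor DESeq2 called any of the 5, and 1 had an unadjusted edgeR p under 0.05, beside 12.3% of all tested genes. The dormancy gene G (Glyma.01G198500) stood at 11.2 CPM in df14, 8.52 CPM in df36 and 10.7 CPM in df3, against 6.23 CPM in ys16, 6.82 CPM in ys29 and 5.86 CPM in ys34 (log2 fold change 0.69 with SE 0.238 and edgeR adjusted p = 0.382, and 0.79 without df36). In the advanced lines the groups overlapped, with a log2 fold change of -0.20. Glyma.02G269500 (GmHs1-1), a gene of seed coat hardness, stood at 2.88 to 3.04 CPM in cultivated and 2.13 to 2.80 CPM in wild lines (log2 fold change 0.35, and 0.33 without df36). B1 (Glyma.13G241700), which controls bloom on the seed, averaged 8.08 and 6.68 CPM, and the stay-green genes D1 (Glyma.01G214600) and D2 (Glyma.11G027400) averaged 6.57 and 4.10 CPM against 5.45 and 1.96 CPM. Pod shattering is controlled by SHAT1-5 (Glyma.16G019400), which had 0 or 1 count in each of the 6 lines, and stem growth by Dt1 (Glyma.19G194300), which had at most 2.

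Clock genes split the 6 lines in another way than the crop and its relative. LHY genes peak in the morning in plants, and GIGANTEA peaks later in the day. The 4 LHY identifiers were outside the rule for named genes and were picked after their values were seen. Glyma.03G261800 (listed as LHY2b) stood at 106 CPM in df14, 63.7 CPM in df36 and 93.0 CPM in ys16, but at 2.80 CPM in df3, 2.13 CPM in ys29 and 1.20 CPM in ys34. Glyma.19G260900 (LHY2a) was at 34.3 to 55.4 CPM in the first 3 of these lines and at 1.76 to 2.56 CPM in the others. Glyma.16G017400 (LHY1a) and Glyma.07G048500 (LHY1b) were also highest in df14, df36 and ys16. The GIGANTEA homologue E2 (Glyma.10G221500) ran the other way, at 31.5, 14.1 and 39.6 CPM in df14, df36 and ys16 and at 100.5, 114 and 107 CPM in df3, ys29 and ys34.

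The clock therefore put 2 cultivated lines with 1 wild line and 1 cultivated line with 2 wild lines, and the labels give no hour of sampling. None of the 10 tested clock and maturity genes parted cultivated from wild lines, beside 18.8% of all tested genes. Calls among them numbered 0 with edgeR and with DESeq2, beside 0.0349% and 1.85% of all genes. An unadjusted edgeR p under 0.05 was reached by 1 of them, beside 12.3%. So few genes do not set this list apart from all genes. Among the advanced lines only ys26 held LHY2b at a high level, 82.6 CPM. With log2 CPM of Glyma.03G261800 as a term, added after seeing the data, 8 genes were called, all of them among the 11. In that fit the log2 fold change of CHS7 was -2.85, that of lectin 6.29 and that of GmSWEET10a 2.14.

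**Figure D5:**
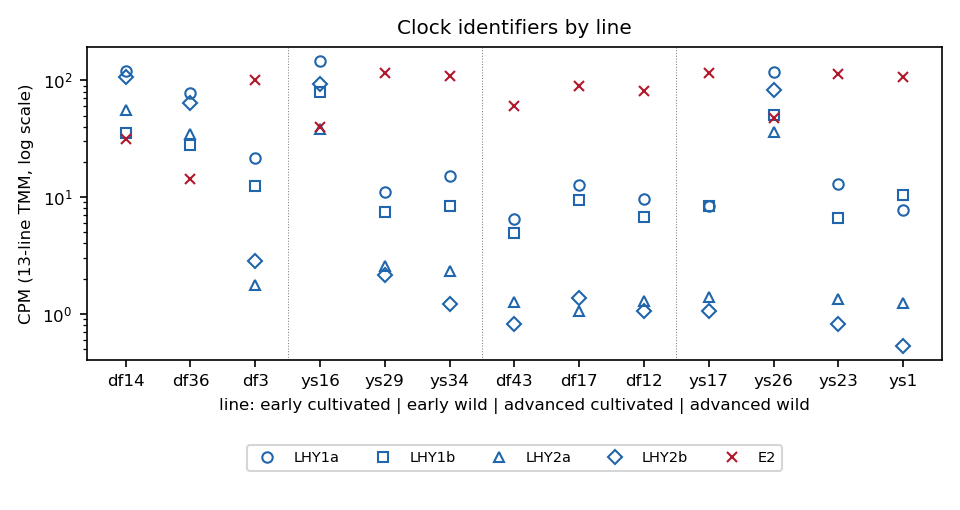
CPM on the TMM scale of 13 lines, on a log axis, of 4 LHY identifiers (blue) and E2 (red crosses), with lines grouped as early-filling cultivated, early-filling wild, advanced cultivated and advanced wild. LHY values are high and E2 low in df14, df36, ys16 and ys26, and the reverse holds in the other 9 lines.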

How the data were processed

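The authors deposited raw whole-number counts of 43517 genes in 13 lines. Per the labels' protocols, DNase-treated total RNA was made into stranded mRNA libraries. Trim Galore 0.3.3, TopHat2, SAMtools and edgeR are named, without their roles, per the submitters' processing notes. Counter, genome build, annotation and handling of multiply matching reads have no entry in the labels (not given in the sources used here). Close copies are therefore uncertain. A Glycine soja gene list (59365 rows) matched 0 identifiers.

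Lines were chosen by CPM of the column sums, and 0 columns belonged to no sample. The lowest chi-square per degree of freedom between 2 of the 6 lines, over genes with at least 20 counts, was 21.8, so none was a duplicate. Of 43517 features, 31511 passed the edgeR expression filter. Counts were fitted with edgeR 4.0.16 (R 4.3.3, TMM, quasi-likelihood F-test, group as the only term, Benjamini-Hochberg adjustment, threshold 0.05), after the test recovered known changes in simulated data. Those data were drawn from the means and spreads of the same fit, so they cannot show how well its model holds for these lines. Standard errors were log2 fold changes divided by the root of F. The interaction used 4 groups of 13 lines. Alternatives were no filter, RLE or upper-quartile factors, a stricter filter (1 CPM in 3 lines and a mean of 5 CPM), DESeq2 1.42.0 and limma 3.58.1 voom. The voom fit used sample quality weights, which give lines unequal weight. Further alternatives were all 13 lines, removal of the 8 most abundant features, the storage score (prior count 2) or the clock gene Glyma.03G261800 as a term, limits of 3000 and 30 CPM, and leaving out each line.

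Named genes were up to 2 called genes per direction, list genes whose groups did not overlap, the most abundant tested member of each list, and all sugar, size and domestication genes. A few others are given by their levels. The members and lists were chosen with earlier results of these data known. Figures were drawn with matplotlib 3.10.9.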

Additional observations from a re-analysis of the deposited data

How the results depend on the processing

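The 11 calls (5 higher, 6 lower) were the same under RLE and upper-quartile factors and without the 8 most abundant features. Without a filter there were 33 (23 and 10), with the stricter filter 5 (3 and 2), with DESeq2 582 (393 and 189), with limma voom 107 (57 and 50), and all of them but the stricter filter's held all 11. The fit of 13 lines gave 10 (9 and 1), with 1 of the 11 among them. The storage score as a term gave 5 (1 higher), a limit of 3000 CPM gave 30 (20 and 10, with 3 of the 11), and a limit of 30 CPM, which leaves out df3, gave 15 (10 higher). With the clock gene as a term 3 were higher. Leaving out 1 line gave 6 (without df36) to 22 (without ys16), 2 to 14 higher and 4 to 8 lower. The cause of these shifts was not tested. The interaction was called for 7 genes by DESeq2, 1 by limma voom and 0 to 1 on leaving out a line. Genes present in 1 group alone numbered 14 and 5 at a minimum of 5 counts (cultivated and wild) and 5 and 0 at 20. Of 1051 log2 fold changes of 59 named genes under the alternatives, 32 changed sign, in 13 genes that edgeR did not call. With limma voom these were Glyma.05G003900 (0.12), Glyma.19G240800 (-0.073), Glyma.02G119600 (-0.027) and Glyma.10G244400 (-0.0011). With the storage score they were Glyma.20G148300 (-0.81), Glyma.11G027700 (0.095), Glyma.02G119600 (-0.084) and Glyma.10G244400 (-0.25). At 3000 CPM they were Glyma.01G061100 (-0.089), Glyma.10G244400 (-0.060) and Glyma.01G214600 (-0.42), and at 30 CPM Glyma.20G148300 (-0.25), Glyma.11G027700 (0.18) and Glyma.10G244400 (-0.19). With the clock gene it was Glyma.17G112800 (0.068). Leaving out 1 line moved Glyma.20G148300 over -0.25 to 1.97, Glyma.09G073600 over -0.21 to 0.14, Glyma.05G003900 over -1.02 to 0.065, Glyma.11G027700 over -0.23 to 0.18, Glyma.05G019200 over -0.40 to 0.65, Glyma.10G244400 over -0.19 to 0.25, Glyma.20G150000 over -0.38 to 0.013, Glyma.17G112800 over -0.34 to 0.19, Glyma.05G096500 over -0.24 to 0.12 and Glyma.01G214600 over -0.0035 to 0.55. No paired analysis was possible because the labels give lines no shared replicate numbers. With 3 lines a group, depth limits genes under about 1 CPM most.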

Other observations

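The phytate genes were counted above among the list genes but not described. Inositol phosphate synthase (Glyma.18G018600, listed as MIPS1), the first enzyme of phytate synthesis, stood at 628 CPM in df14, 565 CPM in df36 and 504 CPM in ys16, but at 217 CPM in df3, 269 CPM in ys29 and 194 CPM in ys34. Those are the same sets of lines as for the LHY genes. The log2 fold change of MIPS1 between cultivated and wild lines was 0.54, and 0.012 with the clock gene as a term (edgeR adjusted p = 0.993). That term was added after seeing the data, and a link between MIPS1 and the clock was not tested. The phytate transporter gene Glyma.03G167800 (listed as lpa1) was lower in cultivated lines without overlap, at 10.6 to 20.7 CPM against 21.6 to 23.8 CPM (log2 fold change -0.45, edgeR adjusted p = 0.489), and its log2 fold change was -0.21 without df36.

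The isoflavone synthase genes of the flavonoid list were named after their values were seen. Glyma.07G202300 (listed as IFS1) stood at 34.8 CPM in ys16 and at 1.92 to 14.5 CPM in the other 5 early-filling lines. Glyma.13G173500 (listed as IFS2) stood at 1.54 CPM in df14, 7.54 CPM in df36 and 9.53 CPM in df3, and at 1.27 to 2.13 CPM in wild lines. It was 3.70-fold higher in the crop (log2 fold change 1.89 with SE 0.616 and edgeR adjusted p = 0.371), with overlap through df14.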
